A study of Homo sapiens with 15 samples.

Results

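The MHC class I presentation genes examined here were 9 genes chosen by symbol: the heavy chain genes HLA-B, HLA-C, HLA-E and HLA-F, the light chain gene B2M, the peptide transporter and loading genes TAP1, TAP2 and TAPBP, and the regulator NLRC5. The rule used the symbols alone, though the members were chosen with earlier results of these data known. The symbols matched 10 of 57820 gene identifiers, since TAP2 also named a second identifier that was listed at 0 in all 15 libraries. The other 9 identifiers, 1 for each gene, were above 0 in MOLM-13, and 8 of them were above 0 in U937 and in HL-60, where HLA-F was listed at 0.

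Libraries were made from MOLM-13, U937 and HL-60, 3 established human lines of acute myeloid leukemia (AML), and the comparison asked how transcripts change when RNF5, a ubiquitin ligase of the endoplasmic reticulum membrane, is depleted. In each line the control group, pLKO, carried the empty lentiviral vector, and the knockdown group, shRNF5, carried a short hairpin RNA against RNF5. No other treatment was named for either group, and the sources used here did not say which of the study's hairpins was sequenced. There were 3 pLKO and 2 shRNF5 libraries of MOLM-13, 3 of each group of HL-60, and 2 of each group of U937 (pLKO replicates 2 and 3, shRNF5 replicates 1 and 3). RNA was taken 7 days after knockdown by the sample labels and 5 days after it by the series' design text. An empty vector controls for transduction but not for the presence of a hairpin. The labels did not say whether replicates were separate cultures, so each p-value measures only the spread between these libraries, which may be technical.

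MHC class I molecules display peptides from inside the cell to cytotoxic T cells and natural killer cells. A polymorphic heavy chain pairs with beta-2-microglobulin in the endoplasmic reticulum, where the TAP1 and TAP2 transporter brings in peptides cut by the proteasome and tapasin, the product of TAPBP, holds the empty molecule at the transporter. NLRC5 is drawn to a shared promoter module of the class I genes and raises their transcription, while interferon and NF-kappaB signalling act on further promoter elements. Loss of this pathway is a known route by which tumour cells, leukemia cells among them, escape T cells.

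On GRCh37, the build the labels name as hg19, 7 of the 9 genes lie in the MHC on chromosome 6, which also holds RNF5 at chr6:32146182-32148570. Their GENCODE gene spans were HLA-F at chr6:29690552-29706305, HLA-E at chr6:30457286-30461971, HLA-C at chr6:31236526-31239907, HLA-B at chr6:31321649-31334844, TAP2 at chr6:32789610-32806516, TAP1 at chr6:32812986-32821593 and TAPBP at chr6:33267471-33282061. These genes lie between 0.64 Mb (TAP2) and 2.44 Mb (HLA-F) from RNF5. B2M lies at chr15:45003556-45011049 and NLRC5 at chr16:57023397-57117443. Each value counts reads over the exons of a whole gene and so does not separate exons or transcript isoforms.

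RefSeq promoters (GRCh38.p14, 250 bases before and 50 after the start site) were matched for 7 of the 9 genes: HLA-B, HLA-C, HLA-F, B2M, TAP1, TAP2 and TAPBP. The 250 bases before the start site are printed 5′ to 3′ for 4 genes whose transcripts passed the test in a line, and for TAP1, the partner of TAP2, which passed in no line. Capitals mark matches on either strand to an interferon-stimulated response element core (GAAANNGAAA) and to an NF-kappaB site (GGGANNNNCC). All 5 are shown on the strand of the gene.
HLA-B (chr6:31357180-31357429, minus strand): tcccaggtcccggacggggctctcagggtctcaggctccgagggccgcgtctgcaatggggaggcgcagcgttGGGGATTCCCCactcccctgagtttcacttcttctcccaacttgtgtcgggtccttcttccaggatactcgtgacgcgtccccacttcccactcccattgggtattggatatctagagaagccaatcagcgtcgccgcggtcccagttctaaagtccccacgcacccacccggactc
HLA-C (chr6:31272093-31272342, minus strand): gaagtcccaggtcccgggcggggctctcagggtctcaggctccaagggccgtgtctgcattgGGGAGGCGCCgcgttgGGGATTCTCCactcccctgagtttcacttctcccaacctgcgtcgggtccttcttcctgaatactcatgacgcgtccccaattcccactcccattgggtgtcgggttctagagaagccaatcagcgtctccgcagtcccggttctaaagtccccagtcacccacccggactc
B2M (chr15:44711267-44711516, plus strand): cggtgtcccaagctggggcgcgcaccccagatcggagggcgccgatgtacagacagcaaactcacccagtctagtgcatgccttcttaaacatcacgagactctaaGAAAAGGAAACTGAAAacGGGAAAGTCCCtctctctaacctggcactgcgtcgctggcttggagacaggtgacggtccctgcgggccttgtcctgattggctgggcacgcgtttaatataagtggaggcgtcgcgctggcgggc
TAP2 (chr6:32838740-32838989, minus strand): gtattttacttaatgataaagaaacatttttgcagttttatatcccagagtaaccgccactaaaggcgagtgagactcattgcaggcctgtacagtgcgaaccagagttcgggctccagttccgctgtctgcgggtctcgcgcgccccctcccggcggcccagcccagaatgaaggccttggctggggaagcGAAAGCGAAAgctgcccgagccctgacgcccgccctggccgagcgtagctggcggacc
TAP1 (chr6:32853705-32853954, minus strand): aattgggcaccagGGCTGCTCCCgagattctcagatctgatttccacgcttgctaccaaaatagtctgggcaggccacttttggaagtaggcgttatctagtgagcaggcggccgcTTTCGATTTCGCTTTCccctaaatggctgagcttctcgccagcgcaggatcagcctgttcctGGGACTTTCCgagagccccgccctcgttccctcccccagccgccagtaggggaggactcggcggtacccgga

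The interferon response core was found in 5 of the 7 matched genes, namely HLA-F, B2M, TAP1, TAP2 and TAPBP, and in 3.57% of 35116 RefSeq promoters of the same 300-base length. HLA-B and HLA-C held no match to these letters in the window. The NF-kappaB letters were found in HLA-B, HLA-C, B2M, TAP1 and TAPBP and in 25.6% of all promoters, and 1 of the 3 TAP1 matches lies after the start site, outside the bases printed. A CCAAT box was found in 5 of the 7 genes against 34.6% of promoters, and the CRE-like letters TGACG in 4 against 24.6%. The interferon gamma element TTCNNNGAA was found only at the second RefSeq promoter of TAP1 and in 7.66% of all promoters. GC boxes (GGGCGG) were found in 4 of the 7 genes and in 45.0% of promoters. Both strands were searched, matches of different motifs may overlap, and a match describes letters, not binding.

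The values were read counts that the authors normalized within each line and rounded, so a level can be compared between libraries of 1 line, and levels of different lines stand side by side with no test. Fold changes are differences of mean log2(value + 1) between shRNF5 and pLKO from limma, and a gene was called at a Benjamini-Hochberg adjusted p under 0.1 over all genes of the line with an absolute log2 fold change over 0.4. Only in MOLM-13 did a gene of this set, HLA-F, have values low enough for the added 1 to shrink its fold change noticeably. Since these are bulk samples, fewer cells that express a gene and less RNA per cell cannot be told apart.

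RNF5 was lower in every shRNF5 library than in any pLKO library of its line, by a log2 fold change of -3.25 (HL-60), -3.64 (U937) or -3.77 (MOLM-13). No 2 libraries held identical values, and the spacing of low values gave between 9700000 and 21400000 assigned reads in 11 of 15 libraries, with no usable estimate in the other 4. Of 10 myeloid markers, all were above 0 in MOLM-13 and U937 and 9 in HL-60, where CSF1R was at 0. T cell, erythroid and epithelial markers were at 0 in every library. B cell markers were above 0 for 1 of 4 genes in MOLM-13 and in HL-60 and 3 of 4 in U937, and COL1A1 was the 1 of 4 fibroblast markers above 0, in U937 only.

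**Figure D1:**
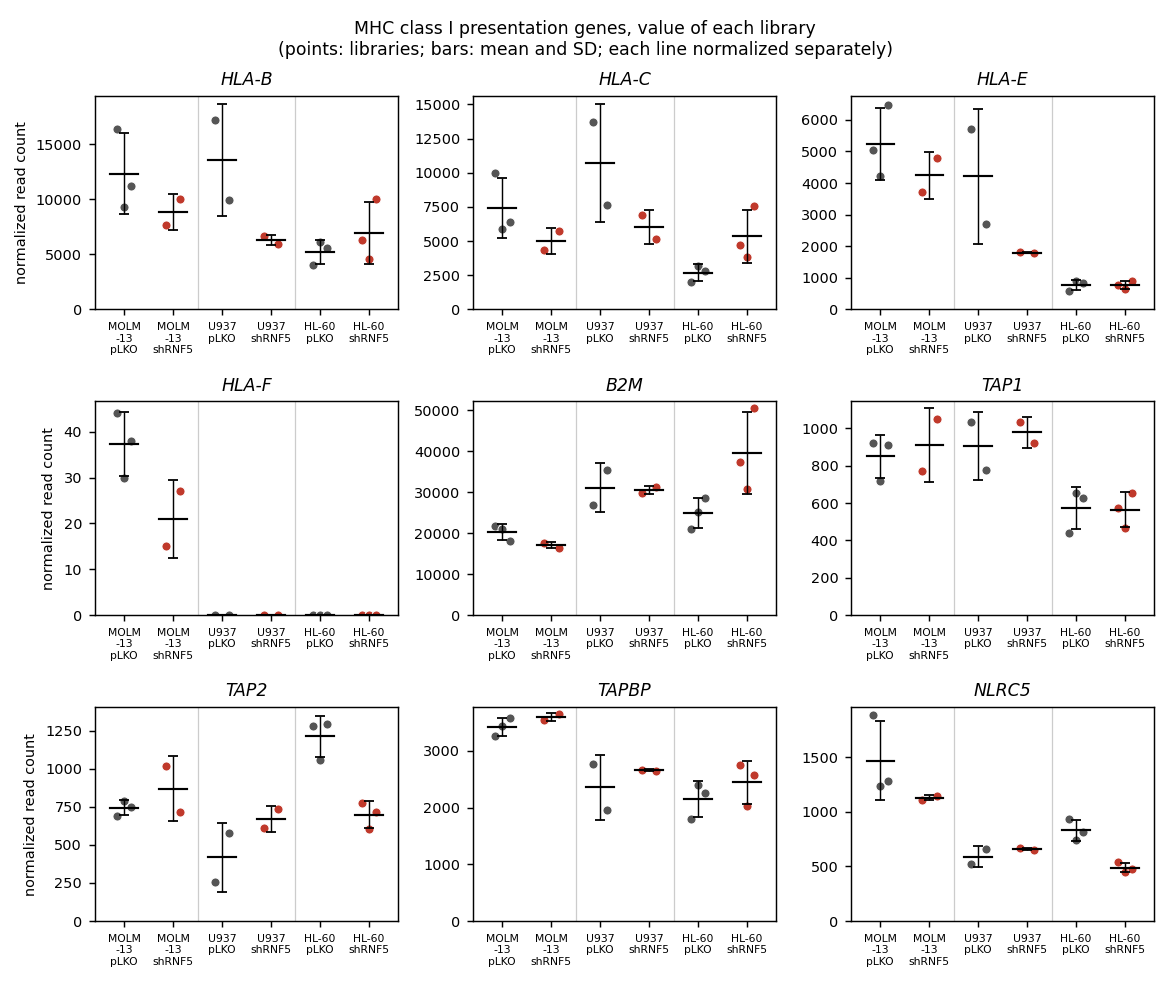
Normalized read count (y axis, from 0, own scale per gene) of the 9 genes in each library of the 6 groups (x axis), pLKO in grey and shRNF5 in red, with the group mean and SD as bars. HLA-B, HLA-C and HLA-E were lower in both U937 shRNF5 libraries, whereas HLA-C and B2M were higher and TAP2 and NLRC5 lower in all 3 HL-60 shRNF5 libraries.

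In U937, knockdown libraries held less RNA of the heavy chains HLA-B and HLA-E, and 2 of the 8 genes tested passed the test, both downward, where 8.74% of all genes fell and 15.7% passed in either direction. In HL-60, HLA-C and B2M rose while TAP2 and NLRC5 fell, so that 4 of 8 passed, against 25.9% of all genes (13.6% up and 12.3% down). In MOLM-13, limma called 0 of 9, against 2.04% of all genes, and 0 of 9 had an unadjusted p under 0.05. Taking the set's median, log2 fold changes stood at 0.09 in HL-60, 0.05 in U937 and -0.29 in MOLM-13, beside 0.00, 0.00 and 0.01 for all genes tested. In each line 4 of the genes had groups that did not overlap, a state found for 38.5% of all genes in HL-60, 59.2% in U937 and 38.7% in MOLM-13.

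Among the heavy chains, HLA-B encodes a classical, highly polymorphic molecule that presents peptides to CD8 T cells. In U937 its normalized read count was 17169 and 9931 in the pLKO libraries and 6629 and 5958 in the shRNF5 libraries. Both knockdown libraries were below both controls, although the controls themselves stood far apart. The log2 fold change was -1.05 ± 0.30 (SE, n = 2 and 2; limma adjusted p = 0.0584). Leaving out pLKO replicate 2, the higher control, brought it to -0.66 (limma adjusted p = 0.265), and leaving out pLKO replicate 3 brought it to -1.45 (adjusted p = 0.0639). The call was also lost without shRNF5 replicate 1 (-1.13, limma adjusted p = 0.597) and without shRNF5 replicate 3 (-0.98, limma adjusted p = 0.298).

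In MOLM-13, HLA-B was 16379, 9260 and 11220 in pLKO and 7660 and 10002 in shRNF5, and the groups overlapped (log2 fold change -0.45, adjusted p = 0.375). In HL-60 it was 3992, 6109 and 5554 in pLKO and 6282, 4529 and 9981 in shRNF5. The lowest knockdown library there fell among the controls, and the log2 fold change of 0.36 had a 95% interval from -0.21 to 0.92 (limma adjusted p = 0.346). Without shRNF5 replicate 2, that lowest library, HLA-B was called in HL-60 at 0.63 (limma adjusted p = 0.0913), and without shRNF5 replicate 3, the highest library, the log2 fold change was 0.05 (adjusted p = 0.89).

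HLA-C, the other classical heavy chain in the set and a ligand of killer-cell receptors, passed the test in HL-60 only. In HL-60 its normalized read count was 1984, 3197 and 2821 in pLKO and 4710, 3814 and 7548 in shRNF5. Every knockdown library was above every control, and HLA-C rose by a log2 fold change of 0.97 ± 0.24 (SE, n = 3 and 3; limma adjusted p = 0.0198). The call was kept with each of the 6 libraries left out in turn, at log2 fold changes of 0.70 to 1.19.

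In U937, HLA-C was 13738 and 7640 in pLKO and 6879 and 5142 in shRNF5, and both knockdown libraries were below both controls. The log2 fold change of -0.78 ± 0.31 did not pass the test (limma adjusted p = 0.139). Without pLKO replicate 2, the higher control, it was -0.36 (limma adjusted p = 0.477), and without pLKO replicate 3 it was called at -1.21 (limma adjusted p = 0.0828). In MOLM-13, HLA-C was 9958, 5881 and 6409 in pLKO and 4324 and 5706 in shRNF5, again with no overlap, and the log2 fold change of -0.54 did not pass (adjusted p = 0.301).

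HLA-E encodes a nonclassical heavy chain that displays leader peptides of other class I molecules to inhibitory receptors of natural killer cells. In U937 its normalized read count was 5716 and 2702 in pLKO and 1806 and 1784 in shRNF5. The knockdown libraries were nearly alike and below both controls, of which 1 was far above the other. HLA-E fell by 1.13 on the log2 scale (SE 0.33, n = 2 and 2; limma adjusted p = 0.0635). Leaving out pLKO replicate 2 brought the change to -0.59 (limma adjusted p = 0.264), and the call was also lost at nearly the same fold change without shRNF5 replicate 1 (-1.14, adjusted p = 0.605) and without shRNF5 replicate 3 (-1.12, adjusted p = 0.301).

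In HL-60, HLA-E was 586, 906 and 831 in pLKO and 769, 642 and 897 in shRNF5. The groups overlapped fully, and the log2 fold change was 0.00 with a 95% interval from -0.40 to 0.41. In MOLM-13 it was 5061, 4220 and 6476 in pLKO and 3726 and 4778 in shRNF5, with overlap (log2 fold change -0.29, adjusted p = 0.487).

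HLA-F, a nonclassical heavy chain of limited tissue range, was measured at low values and in MOLM-13 only. Its normalized read count was 44, 30 and 38 in pLKO and 15 and 27 in shRNF5. Both knockdown libraries were below the 3 controls, but the log2 fold change of -0.84 ± 0.43 did not pass (limma adjusted p = 0.356). With 1 fit over all 15 libraries HLA-F was called in MOLM-13 (limma adjusted p = 0.0605). A gene listed at 0 in a line had been filtered there by the authors, so no fold change exists for U937 or HL-60.

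B2M encodes beta-2-microglobulin, the invariant light chain without which heavy chains do not reach the cell surface. In HL-60 its normalized read count was 21119, 25253 and 28461 in pLKO and 37229, 30824 and 50386 in shRNF5. All knockdown libraries were above all controls, and B2M rose by a log2 fold change of 0.64 ± 0.20 (SE, n = 3 and 3; limma adjusted p = 0.0442). The call was lost without pLKO replicate 1 (0.53, limma adjusted p = 0.14) and without shRNF5 replicate 3 (0.45, limma adjusted p = 0.139).

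In U937, B2M was 26843 and 35312 in pLKO and 29880 and 31168 in shRNF5, with both knockdown libraries between the controls. The log2 fold change of -0.01 had a 95% interval from -0.65 to 0.62. In MOLM-13 it was 21793, 20992 and 18181 in pLKO and 17603 and 16485 in shRNF5. The groups did not overlap, and the log2 fold change of -0.25 did not pass (adjusted p = 0.389).

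Heavy chain RNA was also set against B2M within each library, as a percentage of its normalized read count, with no test. In U937 HLA-B was 28.1% to 64.0% of B2M in pLKO and 19.1% to 22.2% in shRNF5, and HLA-E was 7.65% to 21.3% and 5.72% to 6.04%. Both ratios were lower in the knockdown libraries without overlap. The ratio of HLA-C to B2M overlapped between the groups in U937. In MOLM-13 the ratios of HLA-B, HLA-C and HLA-E all overlapped, as did that of HLA-B in HL-60. In HL-60 HLA-E was 2.78% to 3.59% of B2M in pLKO and 1.78% to 2.08% in shRNF5, where B2M was the gene of the pair that rose. HLA-C was 9.39% to 12.7% and 12.4% to 14.98% of B2M in HL-60, with slight overlap.

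TAP2, which pairs with TAP1 to form the peptide transporter, gave the lowest adjusted p of the set. In HL-60 its normalized read count was 1284, 1060 and 1297 in pLKO and 778, 603 and 714 in shRNF5. All knockdown libraries were below all controls, and TAP2 fell by 0.80 on the log2 scale (SE 0.14, n = 3 and 3; limma adjusted p = 0.00536). Its call was kept with each library left out in turn, at log2 fold changes of -0.89 to -0.70.

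In U937 TAP2 was 259 and 577 in pLKO and 611 and 733 in shRNF5, and both knockdown libraries were above both controls. The log2 fold change of 0.79 ± 0.37 did not pass (limma adjusted p = 0.2). It was 0.21 without pLKO replicate 2 (limma adjusted p = 0.642) and 1.37, a call, without pLKO replicate 3 (adjusted p = 0.0677). It was also called in 1 fit over all libraries (limma adjusted p = 0.0563). In MOLM-13 TAP2 was 690, 788 and 751 in pLKO and 1022 and 718 in shRNF5, with overlap (log2 fold change 0.21, adjusted p = 0.609). Of the exon bases of TAP2 in the GENCODE annotation used here, 19.5% are shared with another gene on the same strand.

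TAP1, the partner of TAP2 in the transporter, did not pass the test in any line. In HL-60 it was 442, 652 and 628 in pLKO and 573, 466 and 654 in shRNF5, with full overlap and a log2 fold change of -0.02 (95% interval -0.42 to 0.39). In U937 it was 1035 and 778 in pLKO and 1037 and 920 in shRNF5 (log2 fold change 0.12). In MOLM-13 it was 923, 717 and 912 in pLKO and 773 and 1053 in shRNF5 (0.09). The 95% interval of TAP2 in HL-60, -1.11 to -0.49, did not overlap that of TAP1.

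TAPBP encodes tapasin and, like TAP1, was called in no line. In MOLM-13 it was 3260, 3431 and 3571 in pLKO and 3547 and 3651 in shRNF5. In U937 it was 2760 and 1951 against 2670 and 2648, and in HL-60 it was 1791, 2400 and 2248 against 2751, 2020 and 2571. No line had separate groups, and TAPBP changed by 0.07, 0.20 and 0.19 on the log2 scale in that order (limma adjusted p = 0.798, 0.649 and 0.414).

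NLRC5, the transactivator of class I genes, fell in HL-60. Its normalized read count there was 930, 742 and 817 in pLKO and 536, 453 and 474 in shRNF5. No knockdown library reached a control, and NLRC5 fell by 0.76 on the log2 scale (SE 0.14, n = 3 and 3; limma adjusted p = 0.00578). The call was kept with each library left out in turn, at -0.84 to -0.68. HLA-C and B2M, which NLRC5 is known to act on, were higher in the same 3 libraries. Whether these changes are linked was not tested.

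In MOLM-13 NLRC5 was 1884, 1238 and 1281 in pLKO and 1112 and 1143 in shRNF5, with no overlap and a log2 fold change of -0.35 that did not pass (adjusted p = 0.404). In U937 it was 521 and 657 in pLKO and 664 and 651 in shRNF5, with overlap (log2 fold change 0.17, adjusted p = 0.722).

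**Figure D2:**
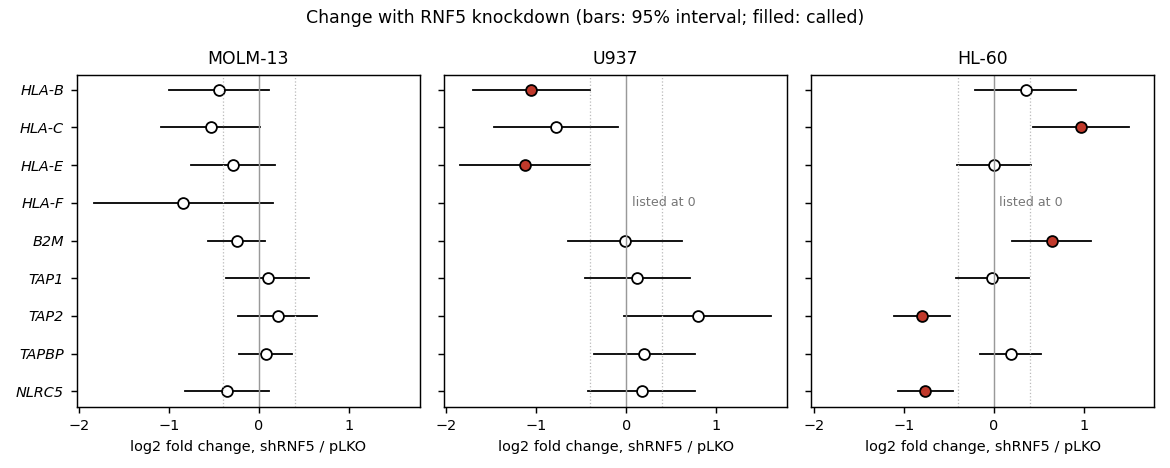
Log2 fold change of each gene, shRNF5 against pLKO, with its 95% interval (bars) in the 3 lines, where filled points passed the test and dotted lines mark 0.4 on either side of 0. HLA-B and HLA-E passed in U937, HLA-C, B2M, TAP2 and NLRC5 in HL-60 and none in MOLM-13.

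**Figure D3:**
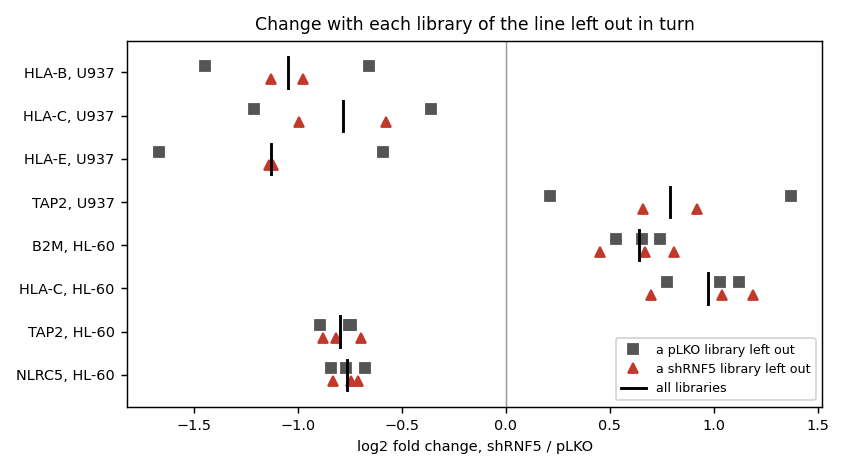
Log2 fold change (x axis) of 8 combinations of gene and line (y axis) with all libraries (black lines) and with 1 pLKO (squares) or 1 shRNF5 library (triangles) left out in turn. The U937 values moved most with the control left out, as HLA-E did from -0.59 to -1.67, and the HL-60 values of TAP2 and NLRC5 moved least.

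The same libraries were then compared between lines, in 1 fit over all 15 libraries that tested whether the response to knockdown differed at an adjusted p under 0.1. The 8 genes above 0 in all lines were tested among 11072 genes. Between U937 and HL-60 the response of 5 of 8 genes differed, against 37.2% of all genes. Between MOLM-13 and HL-60 it differed for 2 of 8, against 8.82% of all genes, and between MOLM-13 and U937 limma called 0 of 8, against 15.4%, with 0 at an unadjusted p under 0.05.

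The heavy chains accounted for most of the differences between U937 and HL-60. The HLA-C response was lower in U937 than in HL-60 by 1.76 on the log2 scale (95% interval -2.69 to -0.82), and the HLA-B response by 1.41 (-2.35 to -0.48). The HLA-E response was lower by 1.13 (-1.95 to -0.31), in a line pair where HLA-E in HL-60 was centred on 0. TAP2 and NLRC5 went the other way, with responses higher in U937 than in HL-60 by 1.59 (0.81 to 2.37) and 0.93 (0.36 to 1.498). Without U937 pLKO replicate 2 the HLA-B and HLA-E differences were no longer called, and HLA-E was also not called without U937 shRNF5 replicate 1.

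B2M differed between MOLM-13 and HL-60, with a response lower in MOLM-13 by 0.89 (95% interval -1.47 to -0.31), as did HLA-C, by 1.51 (-2.40 to -0.62). Neither was called when MOLM-13 pLKO replicate 1, either MOLM-13 shRNF5 library, HL-60 pLKO replicate 1 or 3, or HL-60 shRNF5 replicate 3 was left out, and B2M was also not called without MOLM-13 pLKO replicate 2. TAP1 and TAPBP differed in no pair of lines, and their differences between U937 and HL-60 were 0.14 (-0.52 to 0.80) and 0.01 (-0.52 to 0.54).

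**Figure D4:**
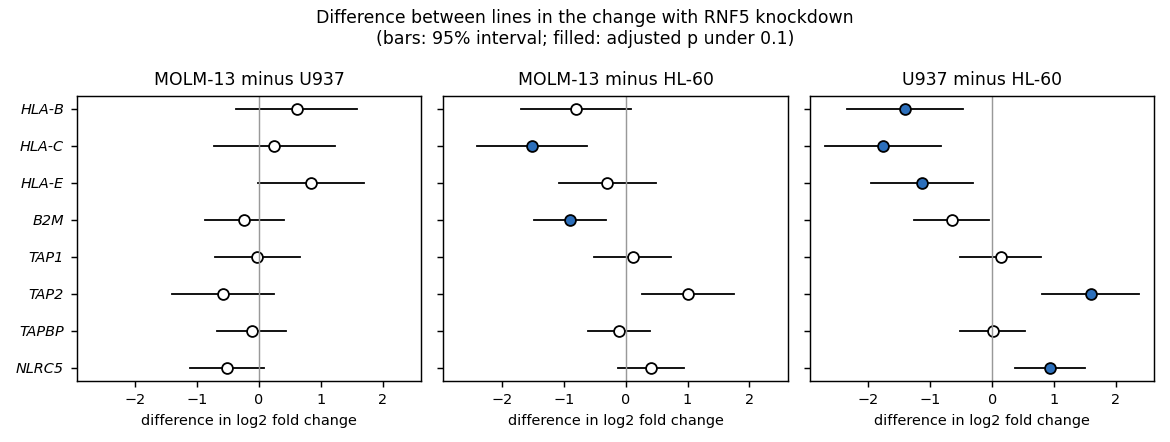
Difference between 2 lines in the log2 fold change with knockdown (x axis, first line minus second) for the 8 genes above 0 in all lines, with 95% intervals, where filled points have an adjusted p under 0.1. HLA-B, HLA-C and HLA-E lie below 0 and TAP2 and NLRC5 above 0 in the panel of U937 minus HL-60.

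The levels themselves differed widely in rank between lines, here in ppm of each library's summed values. Class I heavy chain genes are highly polymorphic, and a difference between lines in level and a difference in how well the reads of each line's alleles aligned cannot be told apart. HLA-B was highest in U937 pLKO, at 831 ± 299 (SD, n = 2), and lowest in HL-60 pLKO, at 321 ± 64.0 (n = 3), with every pair of neighbouring groups overlapping. HLA-C ranged from 655 ± 252 in U937 pLKO, apart from the next group, to 164 ± 36.4 in HL-60 pLKO. HLA-E ranged from 258 ± 126 in U937 pLKO to 47.7 ± 9.78 and 46.7 ± 6.65 in HL-60 pLKO and shRNF5, both of which were apart from the other groups.

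B2M followed another order, with its highest level in HL-60 shRNF5 at 2394 ± 544 (SD, n = 3) and its lowest in MOLM-13, at 799 ± 62.8 in pLKO and 679 ± 21.2 in shRNF5. TAP2 was highest in HL-60 pLKO at 74.9 ± 8.90, apart from all other groups, the next being HL-60 shRNF5 at 42.5 ± 5.15. TAP1 was highest in the U937 groups, at 58.1 ± 1.72 in shRNF5 and 55.7 ± 10.1 in pLKO, and 33.5 to 36.4 in the other 4 groups. TAPBP stayed between 132 and 158 in all 6 groups, and each group overlapped its neighbour. NLRC5 ranged from 57.7 ± 14.02 in MOLM-13 pLKO to 29.7 ± 2.76 in HL-60 shRNF5. HLA-F stood at 1.47 ± 0.29 in MOLM-13 pLKO and 0.84 ± 0.35 in MOLM-13 shRNF5.

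In ppm per kilobase of exon, B2M was the most abundant of the 9 in every group, from 217 in MOLM-13 shRNF5 to 767 in HL-60 shRNF5. HLA-C and HLA-B came next in every group, and HLA-C was ahead of HLA-B in each group except HL-60 pLKO, where they stood at 65.5 and 69.5. Before division by length HLA-B was ahead of HLA-C in every group. The order of these 2 therefore rests on the exon lengths used here, 4623 bases for HLA-B and 2507 for HLA-C. TAP2 and NLRC5 were between 2.40 and 7.23 in every group. The labels name a library kit that reads transcript 3′ ends, for which division by length lowers long genes, and the paper's methods name a kit that covers whole transcripts.

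Other genes of the pathway were examined by list, each with its count of calls and its median log2 fold change. Beside these counts, 2.04% of all genes passed in MOLM-13 and 15.7% in U937 (8.74% down). In HL-60 25.9% of all genes passed (13.6% up and 12.3% down). Of 6 peptide loading genes, 2 rose in HL-60 and none was called in MOLM-13 or U937 (medians 0.28, -0.03 and 0.25). The 2 were PDIA3, a disulfide isomerase of the loading complex, at 0.70 (limma adjusted p = 0.0104) and TAPBPL, a tapasin-related peptide editor, at 1.15 (adjusted p = 0.00802). Both stayed called with each HL-60 library left out. CALR, CANX, ERAP1 and ERAP2 were called in no line.

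Of 5 immunoproteasome and proteasome activator genes, 2 fell in MOLM-13, none was called in U937, and 2 rose in HL-60 (medians -0.31, -0.13 and 0.27). PSMB9, a catalytic immunoproteasome subunit whose gene is transcribed away from TAP1, went from 570 ± 68.5 (SD, n = 3) to 259 ± 4.24 (n = 2) in MOLM-13, a log2 fold change of -1.13 (limma adjusted p = 0.0622). PSMB8, another such subunit, changed by -0.73 (adjusted p = 0.0853), and with each of the 5 libraries left out in turn either gene was called only once, without pLKO replicate 1. The pair that rose in HL-60, PSME1 and PSME2, forms an activator of the proteasome, at 0.56 and 0.43 (limma adjusted p = 0.0559 and 0.0798). With each of the 6 libraries left out in turn, they were called 3 and 2 times, and the groups of PSME2 overlapped. Both calls were lost without pLKO replicate 1, pLKO replicate 3 or shRNF5 replicate 3, and that of PSME2 also without shRNF5 replicate 1.

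The proteins that bind the class I promoter module, 8 genes of the RFX, NF-Y and CREB families, were called once, for NFYC in U937 at 1.04 (limma adjusted p = 0.0373). Their medians were 0.14 in HL-60, 0.01 in U937 and -0.13 in MOLM-13. Of 14 interferon and NF-kappaB signalling genes, 1 of 14 fell in U937, against 8.74% of all genes. In HL-60, 2 of the 13 tested rose, against 13.6% of all genes. STAT2, which carries the type I interferon signal to the nucleus, fell in U937 at -1.32 (adjusted p = 0.0305) and rose in HL-60 at 0.77 (adjusted p = 0.00356), and the difference between these lines was -2.09 (limma adjusted p = 0.00104). JAK1, a kinase of interferon receptors, rose in HL-60 at 0.40, just past the fold threshold (limma adjusted p = 0.0445), and its call was lost without pLKO replicate 1, shRNF5 replicate 1 or shRNF5 replicate 2. The STAT2 call in HL-60 was kept with each library left out.

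Of 20 interferon-stimulated genes, 0 of the 16 tested in MOLM-13 were called by limma, against 2.04% of all genes. In U937, 2 rose and 2 fell of 14, against 15.7% in either direction, and 2 of 13 rose in HL-60, against 13.6%. In U937 the antiviral genes IFIT3 and OAS3 rose by log2 fold changes of 1.73 and 1.25, while IFI6 and IFIT1 changed by -1.66 and -1.98. In HL-60 IRF7, an interferon-inducible transcription factor, rose by 1.38 and stayed called with each library left out. IFI6 rose there by 0.94 with overlapping groups, and its call was lost without pLKO replicate 1 or 3 or shRNF5 replicate 2 or 3. The medians were 0.45, -0.19 and 0.25 in MOLM-13, U937 and HL-60.

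Of 7 genes of MHC class II, 6 were tested in MOLM-13 and 3 each in U937 and HL-60. All 3 fell in U937: CIITA, the class II transactivator, went from 99.5 ± 37.5 to 5.00 ± 2.83 (SD, n = 2 each), CD74, the invariant chain, changed by -1.23 and HLA-DMA, a peptide editor, by -2.63. None was called in MOLM-13 or HL-60, where the medians were -1.17 and -0.28. Of the class I-like molecules and NKG2D ligands, MICB, a stress-induced ligand of natural killer cells, rose in MOLM-13 at 1.12 (limma adjusted p = 0.0618), 1 of 9 tested, and its call was lost without pLKO replicate 2 or either shRNF5 library. FCGRT, the heavy chain of the neonatal Fc receptor and a partner of B2M, rose in HL-60 at 2.99 (limma adjusted p = 0.00291), 1 of 4 tested. Its value was low in pLKO, at 17.3 ± 3.2, and spread widely in shRNF5, at 177 ± 146.5 (SD, n = 3 each). FCGRT stayed called with each library left out, at log2 fold changes of 2.36 to 3.35.

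**Figure D5:**
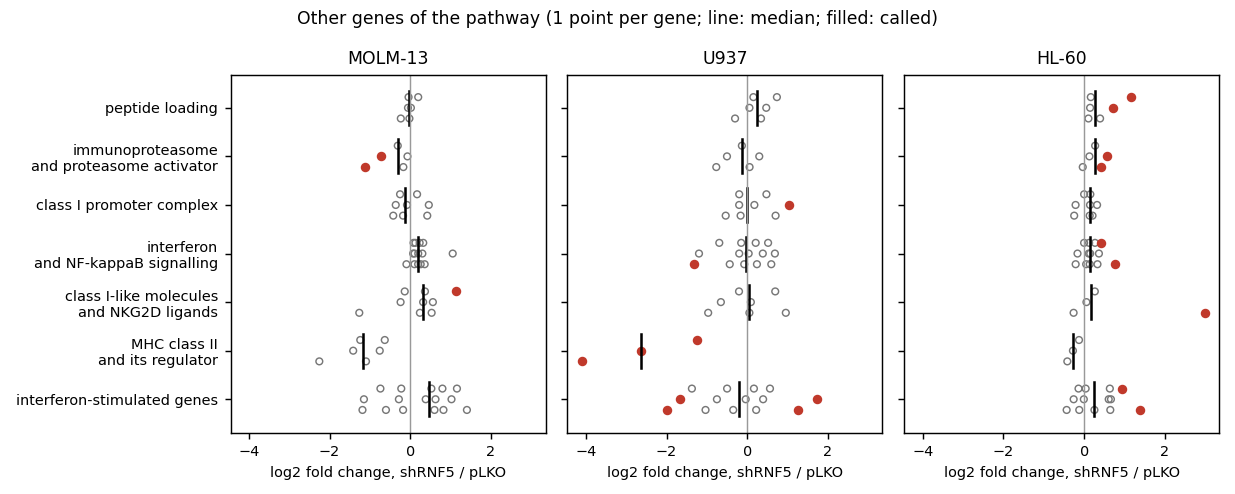
Log2 fold change with knockdown (x axis) of the tested genes of 7 pathway lists (y axis), 1 point per gene, in the 3 lines, with filled points for genes that passed the test and a black line at the list median. The 3 class II genes tested in U937 all fell, and the peptide loading genes called in HL-60 both rose.

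Every U937 gene named from these lists lost its call without pLKO replicate 2, shRNF5 replicate 1 or shRNF5 replicate 3, where limma called 0, 0 and 6 of all 13165 genes in place of 2062. Without pLKO replicate 3 it called 2369 genes, 4 of the 8 class I genes among them (HLA-B, HLA-C, HLA-E and TAP2).

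The summed level of 10 myeloid markers differed between constructs in U937 and HL-60, the lines where class I genes were called. Their summed level was 2648 to 3167 in U937 pLKO and 1575 to 1670 ppm in U937 shRNF5. There 3 of 10 fell (AZU1, ELANE and PRTN3), against 8.74% of all genes. The calls of ELANE and PRTN3 were lost whichever library was left out. Of the 10 markers, 4 had a log2 fold change above 0 in U937, among them CSF1R at 1.30 and MPO at 0.65, neither of them called. In HL-60 the summed level was 7812 to 9549 in pLKO and 11040 to 16090 in shRNF5. There 6 of 9 rose, against 13.6% of all genes, and CD33 fell. AZU1, ELANE and PRTN3 stayed called with each library left out. MPO, LYZ, PTPRC and CD33 were called in 1, 2, 3 and 4 of these 6 fits. In MOLM-13 the ranges were 3192 to 4810 and 3559 to 4727, and limma called none of the 10. The part of this shift in the class I results was not tested. The COL1A1 level in U937 was 2.44 to 14.2 in pLKO and 0.858 to 1.79 ppm in shRNF5, and its part was likewise not tested.

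Across the 15 libraries, with log2 values centred on each line's mean, the 28 pairs of the 8 genes had Pearson correlations from -0.815 to 0.905, with a median of 0.204. The highest were HLA-B with HLA-C (0.905) and HLA-B with HLA-E (0.845), and the lowest was HLA-C with TAP2 (-0.815). TAP1 with TAPBP stood at 0.704 and TAP2 with NLRC5 at 0.604. The points of such a correlation share a library and its normalization, and part of each value is the difference between constructs already given.

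By the same measure, the genes outside the set that were most like the mean of the 8 genes, of those reported here, were PMM1 (0.881), TPGS1 (0.872), METRNL (0.861) and PAK1 (0.831), out of 9625 genes compared over 15 libraries.

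Sequence shared between genes bears on the heavy chains, which resemble each other. Of all 75-base windows of the annotated transcripts, 0.19% of HLA-B, 0.38% of HLA-C and 0.03% of HLA-E windows were identical to a window of another gene of the set. Only exact identity between reference transcripts was counted, so these percentages do not give the share of reads that could align to another gene. With any other gene, the shared windows made up 26.0% in HLA-B and 17.99% in TAP2, nearly all with genes that overlap them, and 1.91% or less in the other 7 genes. Of exon bases, 30.7% in HLA-B overlap another gene on the same strand, and 28% in HLA-F, 21.0% in TAPBP, 14.8% in HLA-B and 14.2% in TAP1 overlap a gene on the other strand. These windows and overlaps are of the GENCODE annotation used here, and the exons the authors counted over may differ from it. How the counting divided reads that fall on 2 genes was not given in the sources used here.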

How the data were processed

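RNA-seq of 15 libraries from MOLM-13, U937 and HL-60 cells was used, as 1 table per library. Per the labels, reads were counted with featureCounts of Subread on hg19 and normalized with edgeR. The values the authors deposited are normalized counts rounded to whole numbers, treated here as a score rather than as raw counts, with genes that failed their filter listed at 0 and each line normalized separately. The labels name a QuantSeq 3′ kit and the paper's methods a directional poly(A) kit, so how evenly reads cover a transcript is not settled.

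Groups came from the titles. Genes above 0 in a library of the line were tested on log2(value + 1) with limma 3.58.1 (R 4.3.3, empirical Bayes with a mean-variance trend, no replicate block), shRNF5 against pLKO per line. A call needed a Benjamini-Hochberg adjusted p under 0.1 and a log2 fold change above 0.4 or below -0.4. Responses were compared between lines as contrasts in 1 fit over all libraries. The fits were tested on simulated data. Spans, exon lengths and overlaps came from a GENCODE annotation lifted to GRCh37, which may differ from the one the authors counted on. Promoters came from RefSeq on GRCh38.p14. Reads per library were estimated from the spacing of low values. Named genes were the members, RNF5, called genes of the lists and the genes outside the set most like the members, of which 1 is not reported here. Members and lists were chosen with earlier results of these data known. Alternatives covered thresholds, pseudocounts, a filter, scalings, the variance model, a length correction, the replicate block and leaving out libraries.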

Additional observations from a re-analysis of the deposited data

Results flagged for a closer look

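In 7 cases the response to RNF5 knockdown differed between lines by limma's test of the difference in 1 fit over 15 libraries. Between U937 and HL-60, the response in U937 minus that in HL-60 was 1.59 on the log2 scale for TAP2 (limma adjusted p = 0.00638), from 0.79 and -0.80 in the separate lines. It was -1.76 for HLA-C (adjusted p = 0.00955), from -0.78 and 0.97, and 0.93 for NLRC5 (adjusted p = 0.0184), from 0.17 and -0.76. For HLA-B it was -1.41 (adjusted p = 0.0273), and for HLA-E -1.13 (adjusted p = 0.0396).

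For MOLM-13 against HL-60, the response in MOLM-13 minus that in HL-60 was -1.51 for HLA-C (limma adjusted p = 0.0568) and -0.89 for B2M (adjusted p = 0.077). The B2M difference between U937 and HL-60, -0.66, lay just past the threshold (adjusted p = 0.1). No group held enough libraries for a test of single outlying values.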

How the results depend on the processing

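The counts of called genes in HL-60 (4) stayed at 3 to 5 under every alternative run, and calls of HLA-C, TAP2 and NLRC5 there were kept in each fit that left out 1 library. In MOLM-13 the count of 0 became 1 (HLA-F) in 1 fit over all libraries. In U937 the count of 2 became 0 at an adjusted p under 0.05 and 0 without the mean-variance trend, and 0 to 4 with a library left out, where the arm with 1 library was assumed to vary like the other. Of the differences between lines, the 2 of MOLM-13 and HL-60 became 0 at an adjusted p under 0.05, 1 without the trend and 0 to 3 with a library left out. The 0 of MOLM-13 and U937 became 0 to 2 with a library left out, with 2 (HLA-E and TAP2) only without U937 pLKO replicate 3. The cause was not tested, beyond the smaller number of libraries.

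Whether replicate numbers pair the libraries was not settled. The deviations of same-numbered HL-60 libraries correlated at 0.386, 0.12 and -0.047, and not every library correlated best with its own number. The shared numbers of MOLM-13 gave -0.133 and -0.447, and that of U937 gave 0.255. Deviations from a group mean cancel out within the group, so these correlations are tied to each other and cannot decide the question. With a replicate block the U937 response rested on replicate 3 alone, 1 library of each group, since its other libraries share no number. The differences between U937 and HL-60 in HLA-B, HLA-C, HLA-E and NLRC5 were not called in that fit. It cannot separate pairing from the loss of libraries. MOLM-13 pLKO replicate 3 has no partner either. With the block the differences called between MOLM-13 and HL-60 became 3, and the counts in MOLM-13 (0) and HL-60 (4) were as before. Over all 13026 genes of MOLM-13, 738 passed with the block and 266 without it. U937 shares 1 replicate number between its groups, so no block was fitted there alone.

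Genes that were not called changed sign near 0. B2M in U937 was 0.0031 with median-of-ratios rescaling and 0.0191 with the length correction, and HLA-E in HL-60 was -0.0064 and -0.105. With a library left out, log2 fold changes ranged from -0.128 to 0.317 for TAP1 and -0.0472 to 0.462 for TAP2 in MOLM-13. In U937 they ranged from -0.211 to 0.185 for B2M, -0.0835 to 0.328 for TAP1 and -0.0538 to 0.446 for TAPBP. In HL-60 they ranged from -0.195 to 0.114 for TAP1 and -0.187 to 0.127 for HLA-E. Other scalings moved the median of all genes by at most 0.045 in size. Groups of 2 or 3 libraries limit what can be detected. The lists other than the 9 genes were refitted with each library left out after the data were seen.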

Other observations

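RNF5 itself lies in the class III stretch of the MHC, between the heavy chain and the transporter genes, and its neighbours there were examined as a list chosen for position. Of the 6 genes tested beside or at RNF5, 1 was called in MOLM-13, RNF5 itself. In U937 AGER, a receptor of glycated proteins, was also called, with 426 ± 133 in pLKO and 121 ± 33.2 in shRNF5 (SD, n = 2 each; log2 fold change -1.81, limma adjusted p = 0.0267), a call lost without pLKO replicate 2 or either shRNF5 library. In HL-60 AGER rose, from 48.7 ± 4.51 to 74.7 ± 7.02 (n = 3 each; 0.61, limma adjusted p = 0.0789), and GPSM3, a regulator of G-protein signalling, rose by 0.53 (adjusted p = 0.05003), a call lost without pLKO replicate 1 or 3 or shRNF5 replicate 3. The AGER call in HL-60 was lost whichever of the 6 libraries was left out. The difference in the AGER response between U937 and HL-60 was -2.41 (limma adjusted p = 9.06e-04). PBX2, AGPAT1 and PPT2 were called in no line.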
